A study of Mus musculus with 2 samples.

Results

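The stretch described here is a 2-Mb window of chromosome 15 (mm9, 61500000 to 63500000) that holds Myc and Pvt1. All DNaseI sites with at least 1 base in this window were taken, whatever their width, which gave 8 of the 53593 sites listed for lymphoma T6 and 8 of the 2327 sites on chromosome 15. T6 is a lymphoma of a C57/Bl6 mouse of genotype Eμ-myc Arf-/- Trp53+/+, and its cells were untreated. They were B cells taken from lymph nodes by straining, with no purification afterwards, so other lymph node cells may have contributed. The labels do not state the age of the mouse. The series has 2 libraries of this tumour, a DNaseI library and an input library. Only the site list of the DNaseI library was analysed here, so no value below has a replicate, a background level or a test between groups. The markers that would check the cell type could not be placed, because no gene positions of build mm9 were used other than those of Myc and Pvt1.

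Myc encodes a transcription factor that binds DNA as a dimer with Max and raises the expression of genes for growth, ribosome production and metabolism. In B cell tumours it is often activated by being joined to immunoglobulin enhancers, and the Eμ-myc transgene copies that event by placing Myc under the enhancer of the heavy chain locus. Pvt1 is a long noncoding RNA gene that lies downstream of Myc, is a known site of retroviral insertion and translocation in lymphoid tumours, and has a promoter that can compete with that of Myc for enhancers. Enhancers that drive Myc in blood cells are known to lie far downstream, beyond Pvt1. DNaseI cuts DNA where nucleosomes are absent or displaced, so a listed site marks a stretch with many cut ends. The list gives no score or read count, so sites can be compared only by position and width, and the depth of the library is unknown. The transgene carries mouse Myc sequence, so cut ends from the transgene and from the resident Myc gene cannot be told apart where they share that sequence. What either adds to the width of a site there was not tested.

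Myc was taken as about 61816900 to 61821900 and Pvt1 as about 61869000 to 62083000, both on chromosome 15 of mm9 and both read in the direction of rising coordinates. These positions are rounded to 100 bp for Myc and to 1000 bp for Pvt1, so distances from the ends of the genes are approximate by as much. In the gene order of RefSeq (GRCm38.p6, used for order alone), Pvt1 is the next gene after Myc. The nearest protein-coding genes are A1bg before Myc, with 7 other genes between them, and Gsdmc after Pvt1, with 14 other genes between them. None of these intervening genes codes for a protein. The transcribed pseudogene Macroh2a3 lies inside Pvt1.

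Myc and the DNA just after it lay almost wholly in listed sites. The first 5 sites of the window followed each other from 61815010 to 61828624, a run of 13.6 kb that began 1.89 kb before the Myc start and ended 6.72 kb after the Myc end. Sites covered 94.4% of this run, and the 4 gaps inside it came to 769 bp in all. The other 3 sites lay at the Pvt1 start, inside Pvt1 and close to the far end of the window. The run thus held 12846 of the 16557 bp that sites covered in the window, or 77.6%.

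**Figure D1:**
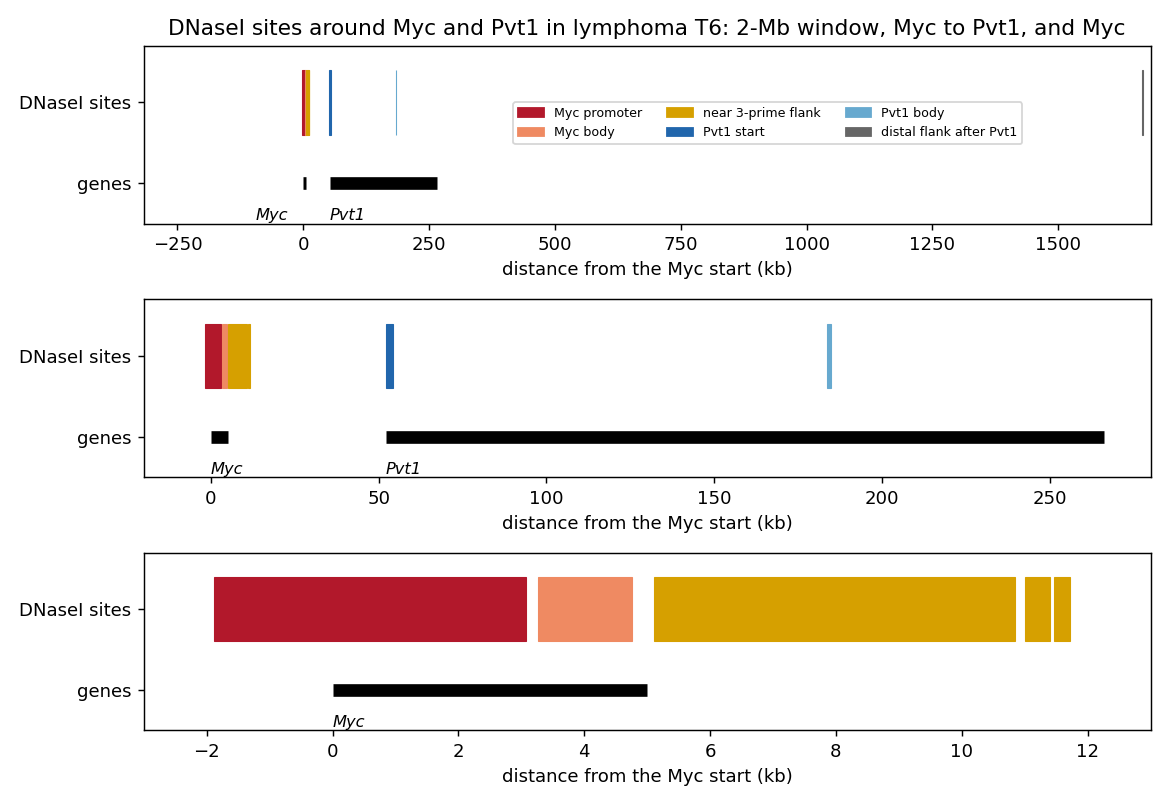
DNaseI sites (coloured boxes, by position class) and the extent of Myc and Pvt1 (black bars) against distance from the Myc start in kb. The top panel shows the whole 2-Mb window, the middle one Myc and Pvt1, and the bottom one Myc alone. In the top panel the outlines make narrow sites look wider than they are. The 5 sites at Myc form a nearly unbroken run of 13.6 kb, and 1 site stands alone at the right edge of the window.

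At the Myc promoter there was 1 site, 4971 bp wide (61815010 to 61819980). It covered all of the stretch from 1 kb before to 1 kb after the Myc start, and reached 3.08 kb into the gene. It was the second widest of the 2327 sites on chromosome 15 and the 22nd widest of the whole list. Upstream of it nothing was listed for 442.1 kb, back to a site of 683 bp that ends at 61372907, outside the window. The 10 kb before the promoter stretch were covered for 8.9% of their length, all of it by the upstream end of the promoter site.

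In the Myc body, a further site of 1494 bp (61820161 to 61821654) followed the promoter site after a gap of 180 bp. It lay wholly inside the downstream part of the gene and ended 246 bp before the Myc end. It was wider than 89.51% of the sites of chromosome 15. The promoter site and this site together covered 91.5% of the gene, all but the 180-bp gap and its last 246 bp.

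The near 3′ flank, here the 10 kb after the Myc end, held 3 sites that covered 63.8% of it. The first was 5732 bp wide (61822010 to 61827741), the widest site of chromosome 15 and the ninth widest of the whole list. It began 110 bp after the Myc end, a distance close to the rounding of the gene's position. Next came a site of 393 bp (61827910 to 61828302) and one of 256 bp (61828369 to 61828624), after gaps of 168 and 66 bp. These 2 were narrow: the narrowest width in the list is 249 bp, and 29.14% and 3.954% of the sites of chromosome 15 were narrower than them. Within the flank, the first 5 kb were covered for 97.8% and the second 5 kb for 29.8%. The run of sites therefore broke at the gene's end for a gap of 355 bp and then went on. Its widest single site lay outside the gene.

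Between the run at Myc and Pvt1 no site was listed for 40.3 kb. The Pvt1 start had 1 site of 2248 bp (61868963 to 61871210), which ranked 56th by width on chromosome 15. It began within 1 kb of the Pvt1 start and reached 2.21 kb into the gene. Only 1 other site lay in the 214 kb of Pvt1, at 62000609 to 62001748, with a width of 1140 bp. It was 131.6 kb past the Pvt1 start and 81.25 kb before the Pvt1 end, and the gap between the 2 sites was 129.4 kb. Sites covered 1.57% of Pvt1, close to the 1.85% of chromosome 15 from its first to its last site. They covered 91.5% of Myc, a gene of only 5 kb. Both Pvt1 sites were wider than the 663 bp median of the whole list.

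Beyond Pvt1 the window was nearly empty. The site inside Pvt1 was followed by 1.48 Mb without a site (62001749 to 63483862), the ninth longest of the 2326 gaps on chromosome 15. The gap ended at a narrow site of 323 bp (63483863 to 63484185), 1.667 Mb after the Myc start and 15.8 kb before the window's end. Nothing was listed in the 305.9 kb of the flank before Myc either. The next 500 kb, outside the window, were looked at after this site was seen and held 25 sites. They were 259 to 1319 bp wide with a median of 604 bp. None was wider than 1500 bp, a width exceeded by 10% of the chromosome 15 sites outside the window. The first 4 of them began 1.755 to 1.939 Mb after the Myc start, and the remaining 21 began from 2.012 Mb on. All 25, and the single one in the window, were narrower than the promoter sites of Myc and Pvt1. The same holds for most sites of the chromosome, as 2.41% of its 2327 sites were at least as wide as the site at the Pvt1 start. None of those outside the window was as wide as the Myc promoter site.

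By number of sites, the 2-Mb window lay below the median window of chromosome 15. Its 8 sites (exact 95% Poisson interval 3.45 to 15.8, counting error only) came to 4 per Mb, against 23.2 per Mb from the first to the last site of the chromosome. The other 48 windows of 2 Mb, laid end to end from this one, held 0 to 170 sites with a median of 27. Fewer sites were present in 13 of them (27.1%, exact binomial interval 15.3 to 41.8%), of which 7 held none, and more in 35. The Poisson interval takes the sites as independent, although 5 of the 8 are parts of the run at Myc. With sites at most 1 kb apart joined, the window held 4. The binomial interval takes the windows as independent draws and leaves out the counting error of the 8 sites. The 2 windows adjoining the Myc and Pvt1 window held 23 sites before it and 48 after it. This place depended on the size of the window: a 1-Mb window centred on the Myc start also held 8 sites, and of 99 other 1-Mb windows 49 held fewer and 49 more.

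By median width the window was instead the highest of the chromosome, though on few sites. The median width of the 8 sites was 1317 bp (order-statistic interval 256 to 5732 bp, the whole range), against 667 bp for the other 2319 sites of chromosome 15 (642 to 690 bp). With 8 sites an interval of this kind can only be the whole range, so it cannot decide whether the medians differ. The intervals given here also take the sites as independent, although 5 of the 8 are parts of the run at Myc. They are therefore a rough guide only. Still, none of the 38 other windows with at least 5 sites had a higher median, and theirs ran from 313 to 793 bp. Widths above 1500 bp occurred in 3 of 8 (37.5%, 8.52 to 75.5%), against 10% of the other sites of the chromosome (8.81 to 11.3%), and widths under 400 bp also in 3 of 8, against 30% (28.1 to 31.9%). Both shares of the chromosome lay within the counting intervals of the 8 sites.

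**Figure D2:**
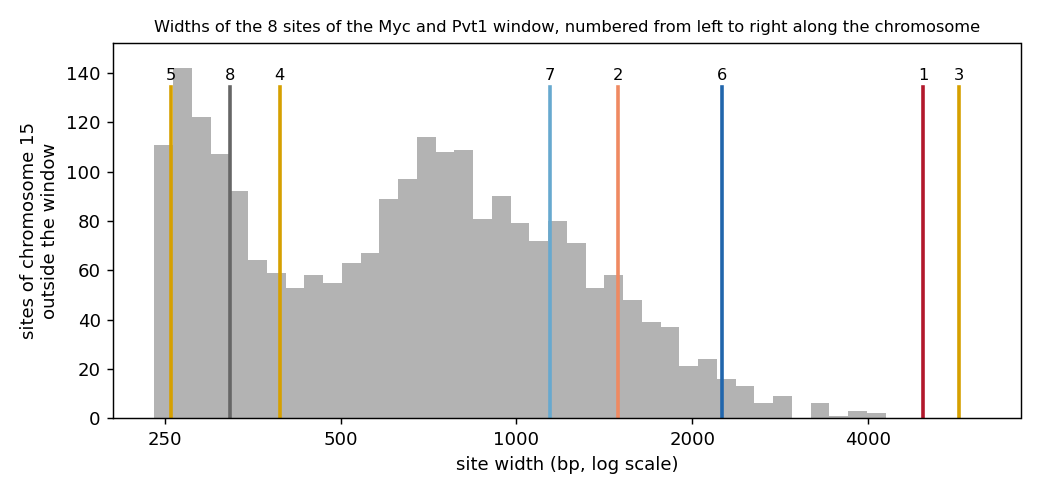
Widths of the sites of chromosome 15 outside the window (grey histogram, number of sites per bin, log scale of bp) with the 8 sites of the window as coloured lines, numbered in order along the chromosome. Sites 1 (Myc promoter, 4971 bp) and 3 (3′ flank, 5732 bp) lie beyond every grey bar, the widest of which holds a site of 4188 bp, while sites 4, 5 and 8 lie among the narrow sites.

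The 2 widest sites, those at the Myc promoter and in the 3′ flank, held 64.6% of the covered bases of the window. Outside the window, the widest site of chromosome 15 measured 4188 bp. By covered bases the window ranked in the middle. It had 16.6 kb in sites, more than 24 of the other 48 windows and less than 24. Without the widest site it would have had 10825 bp. Among the 9 windows with 4 to 16 sites, the range chosen as the most like in number, covered bases ran from 4407 to 9894 bp and the widest single site from 1082 to 2353 bp. All 9 were below the Myc and Pvt1 window on both measures. Without the 5 sites at Myc, the window would have held 3 sites and 3711 bp, with 10 of the 48 windows lower by covered bases. There was 1 library, so whether these differences exceed the spread between tumours or libraries was not tested.

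**Figure D3:**
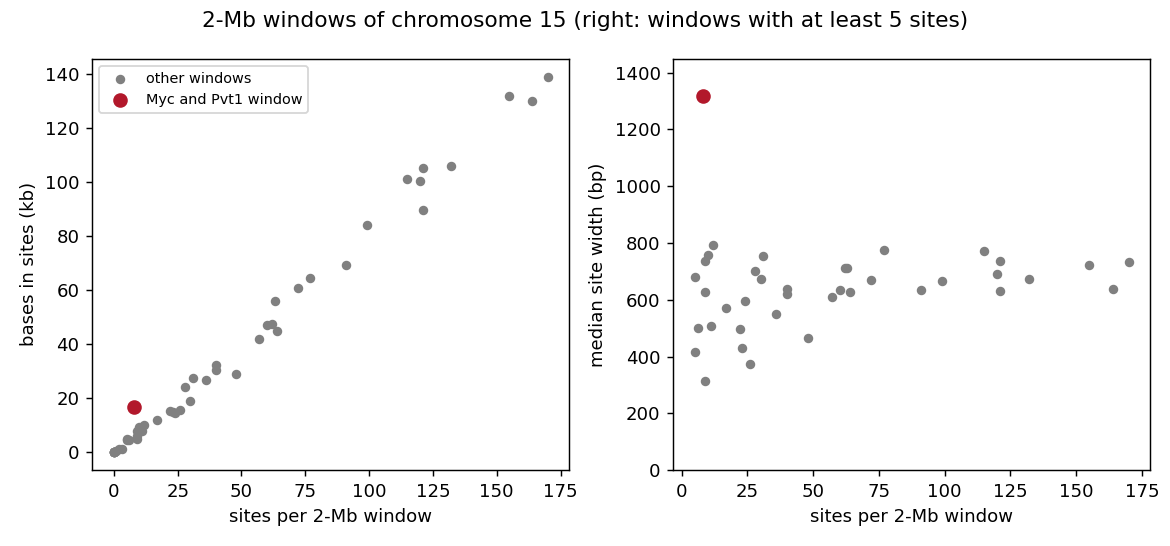
Each point is a 2-Mb window of chromosome 15, the Myc and Pvt1 window in red and the 48 others in grey. The left panel plots the bases in sites (kb) and the right panel the median site width (bp, windows with at least 5 sites) against the number of sites. The red point lies above the line of grey points on the left, and at 1317 bp above all 38 grey points on the right.

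The next comparison was at the scale of the gene. Myc with its 10-kb flank spans 15 kb, of which 73% lay in sites. None of 6676 other stretches of this length on chromosome 15 reached 73%. The highest had 56%, and 80.2% of them held no site base at all. Over all autosomes 4 of 160101 stretches reached 73%, with a maximum of 85.1%. The other stretches were laid end to end and not placed on genes, so a run of sites elsewhere could be split between neighbours. With a flank of 20 kb the share at Myc was 43.8%, and 1 of 4005 other stretches of that length on chromosome 15 and 27 of 96052 on the autosomes were as high. Without the widest site, the share of Myc with its 10-kb flank was 34.8%, below the 56% found elsewhere on the chromosome. The stretches elsewhere kept all their sites, so these values are not directly comparable.

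The place of the run at Myc among joined regions depended on the joining distance. Neighbours separated by 500 bp or less were joined, a distance chosen after the gaps at Myc had been seen. The autosomes and X then held 44390 regions, and the one at Myc was first by length, at 13615 bp, and by bases in sites, at 12846 bp. The next was a region of 12760 bp made of 2 sites on chromosome 12 (114654920 to 114667679), followed by 11715 bp with 7 sites on chromosome 3 and 11484 bp with 4 sites on chromosome 11. On chromosome 15 the next longest region had 6300 bp. Of the 6 joining distances tried, the run at Myc was first by length at this one alone. With 200 bp it split at the 355-bp gap near the Myc end into parts of 6645 and 6615 bp, which ranked 9th and 10th, and with 1 kb it ranked 4th. Distances of 5 kb and more joined separate groups elsewhere while the run at Myc stayed at 5 sites, and at 5 kb it was 661st by length and 33rd by bases in sites. At the planned distance for clusters it was 3717th of 20468 regions by length and 239th by bases in sites, and at 25 kb 5206th and 597th.

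**Figure D4:**
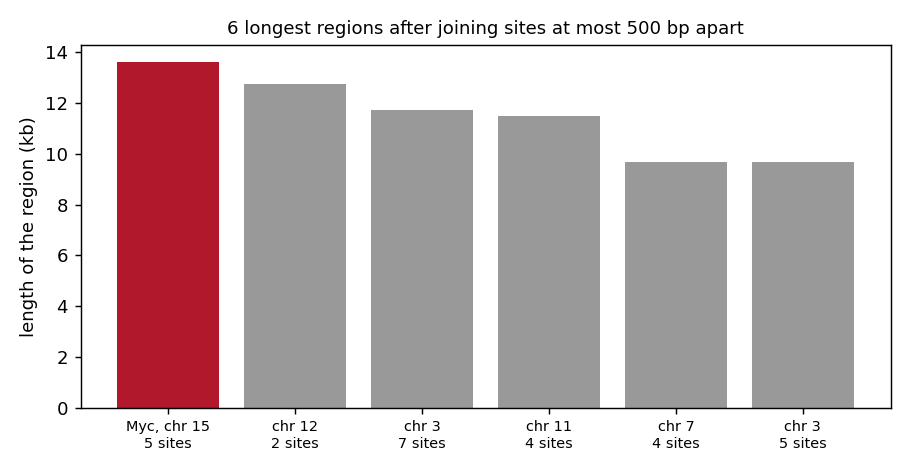
Length in kb of the 6 longest regions on the autosomes and X after joining sites at most 500 bp apart, with chromosome and number of sites under each bar. The region at Myc (red) is 13.6 kb long and the next, on chromosome 12, 12.8 kb.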

How the data were processed

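DNaseI sequencing was done on 1 lymphoma, T6, and the authors deposited a list of sites. Per the submitters' processing notes, BWA 0.6.2 and SAMtools were used with build mm9. How sites were called and filtered, and whether the input served for it, is not stated in the labels. The values the authors deposited are the start and end of each site in bases. No depth or signal came with them. Starts were counted from 1. A site was put in the first class it touched: Myc promoter (1 kb on either side of the start), Myc body, 10-kb flanks, Pvt1 start, Pvt1 body and distal flanks. Joining distances refer to the gap between neighbouring sites. Intervals have a level of at least 95% and cover counting error only. They take sites and windows as independent, which neighbours need not be. Gene positions came with the definition of the window, and the members and settings were chosen with earlier results of these data known. Sites at the Myc promoter, in the Myc body, in its near flanks and at the Pvt1 start were named by rule, with up to 5 widest elsewhere. The planned placement of 11 Myc network genes and the promoter motif search were not run, since no mm9 annotation and no promoter sequence of these genes were used here. The software was scipy 1.17.1, pandas 2.3.3 and numpy 2.4.6 under Python 3.11.15, with plots from matplotlib 3.10.9, and the calculations were tested on simulated data.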

Additional observations from a re-analysis of the deposited data

How the results depend on the processing

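Of 24 planned recomputed values, 15 stayed within counting error, or for a count within 1.5 times instead, and 9 moved. The ranking of joined regions by length, at 500 bp and at the other distances, was added after seeing the data. Counts, widths and shares have no direction to reverse. Taking only sites wider than the median of the list left 5 sites in the window, and joining sites at most 1 kb apart left 4. Without the widest site, covered bases fell to 10825 bp and the covered share of Myc with its near flank to 34.8%. With 20 kb of flank that share was 43.8%. The share of windows below this one was 50% by covered bases, and 49.5% by sites in 1-Mb windows centred on the Myc start. A promoter of 5 kb on either side held 2 sites, and the first 5 kb of the 3′ flank held 1. No paired analysis was possible because there was 1 library and no test. With no signal per site, a stricter threshold by signal was not run.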

Other observations

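Over the autosomes, 1 of 938 other 2-Mb windows with at least 5 sites had a higher median width than the Myc and Pvt1 window. It lies on chromosome 7 (98000001 to 100000000) and holds 5 sites with a median of 1344 bp. The 8 sites of the 1-Mb window centred on the Myc start were not the same 8 sites: it took in the site of 683 bp upstream of the 2-Mb window and left out the one far downstream. The second longest region after joining at 500 bp lies on chromosome 12, the chromosome that carries the heavy chain locus whose enhancer is part of the transgene. Whether it lies in that locus was not tested.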
